A study of Mus musculus with 4 samples.

Results

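Cd209a, Cd209b, Cd209d, Cd209e, Cd209f, Mgl2 and Clec10a are 7 mouse genes for C-type lectin receptors. They were chosen by symbol, from a list drawn up with their levels in these data already known, so their levels by cell type and condition are given as a description with no test. They are 7 of the 32285 genes in the matrices. The data are single-cell RNA libraries of CD45+ (immune) cells sorted from collagenase-digested mouse hindpaws. The study compared diabetic with control animals at a younger and an older age.

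There were 4 conditions with 1 library each. DB mice were C57BLKS/J-Dock7m +/+ Leprdb males with both Lepr alleles mutant (Lepr db/db). The db mutation is carried by every cell and removes the long signalling form of the leptin receptor, and these mice develop obesity and type 2 diabetes. WT mice were male littermates with the genotype Lepr WT/WT. The labels call the ages Young and Aged, and the study's methods give them as 12 and 21 weeks. The libraries are named here by age and genotype, as in 12-week-WT or 21-week-DB. Where 4 values follow each other they are for WT and then DB at 12 weeks, and then WT and DB at 21 weeks. Each library pooled cells of 2 to 3 mice, so the spread between animals cannot be seen and n = 1 in every condition. Every interval below is an exact 95% interval that covers counting error only. Those of levels and ratios treat each UMI as independent, although UMIs of a gene cluster in barcodes. They therefore leave out the spread between cells as well as between animals.

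The receptors of the Cd209 family are mouse relatives of human DC-SIGN (CD209), which dendritic cells and macrophages use to bind mannose- and fucose-rich sugars on microbes and on host glycoproteins. Mouse Cd209b (SIGN-R1) is best known from marginal zone macrophages of the spleen. Mgl2 (CD301b) and Clec10a (Mgl1, CD301a) are the mouse macrophage galactose-type lectins, which bind terminal galactose and N-acetylgalactosamine. In skin, Mgl2 is widely used as a marker of dermal type 2 conventional dendritic cells (cDC2), and both galactose-type lectins are used as markers of macrophages exposed to IL-4.

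The sugar preference of a C-type lectin domain is set largely by a short loop that holds calcium and the sugar. The coding stretches around that loop are shown because they separate the Cd209 genes from the pair of galactose-type lectins. They were read from the GENCODE vM21 transcripts on GRCm38, the build the study names mm10, and the capitals mark 3 adjacent codons of the loop.
Cd209a: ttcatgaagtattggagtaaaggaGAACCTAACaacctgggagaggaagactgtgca
Cd209b: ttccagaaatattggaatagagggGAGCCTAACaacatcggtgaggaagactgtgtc
Cd209d: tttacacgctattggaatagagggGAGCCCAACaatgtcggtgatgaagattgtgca
Cd209e: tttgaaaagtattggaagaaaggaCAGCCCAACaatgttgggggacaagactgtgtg
Cd209f: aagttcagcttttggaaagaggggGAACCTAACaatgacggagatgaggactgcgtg
Mgl2: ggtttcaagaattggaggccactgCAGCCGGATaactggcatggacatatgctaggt
Clec10a: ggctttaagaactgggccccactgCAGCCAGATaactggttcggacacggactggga

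The stretches of Cd209a (chr8:3744177-3744233), Cd209b (chr8:3918770-3918826), Cd209d (chr8:3872053-3872109) and Cd209e (chr8:3849180-3849236) each lay within 1 exon on the minus strand. That of Cd209f lay on the minus strand at chr8:4103201-4103629 and was joined across an intron, as were those of Mgl2 (chr11:70136769-70136969) and Clec10a (chr11:70170259-70170466) on the plus strand. The 3 codons of Cd209a, Cd209b, Cd209d and Cd209f spell the same triplet of amino acids, the one known from mannose-binding domains. Those of Mgl2 and Clec10a spell the triplet known from galactose-binding domains, and Cd209e differs from both groups. The coding sequences of Mgl2 and Clec10a were 91.0% identical, but their longest shared run in the last 400 bases of the transcripts, where reads of a 3′ library lie, was 10 bases. The corresponding run was 29 bases for Cd209f and Cd209g, a near copy that is not among the 7 genes. Over their whole transcripts these 2 genes shared a run of 416 bases, and Mgl2 and Clec10a shared one of 183 bases. Reads from such a run may have been lost in counting, which was not tested.

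The matrices held 5998, 7463, 8208 and 9124 barcodes in the stated order, and 5271, 6552, 7270 and 8707 were kept because they had 200 genes or more and no more than 10% mitochondrial UMIs (unique molecular identifiers, the counted molecules). Median UMIs per kept barcode were 7390, 7194, 8000.5 and 5355, so the 21-week-DB library was the shallowest. The 21-week-WT and 21-week-DB libraries shared 146 barcodes and the 12-week pair shared 38, against 5 to 18 for the other pairs. Removing shared barcodes moved no log2 ratio of a lectin gene by more than 0.0517. The 12-week files name Cell Ranger 5.0.0 in their headers and the 21-week files 6.0.0, so software version and age cannot be told apart.

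Barcodes were assigned to 12 gates from marker UMIs, and none of the 7 lectin genes was used as a marker. The type 2 dendritic cell gates (cDC2, and migratory cDC2 with Ccr7-type genes) held 513, 441, 866 and 214 barcodes together, which is 9.73%, 6.73%, 11.9% and 2.46% of the kept ones. The 4 macrophage gates, defined by C1q genes, held 1583, 1692, 1502 and 1351. The mast cell gate held 326, 281, 212 and 1108, with its share highest in 21-week-DB at 12.7% against 2.92% in 21-week-WT. Flt3 stood at 137 to 188 CPM in the cDC2 gate against 5.10 to 7.18 in Lyve1+ macrophages, and C1qa at 19.7 to 34.1 against 2400.0 to 3099. Both genes define these gates, so these differences follow from the gating. Of markers that do not define them, Csf1r stood at 154.3 to 200.7 against 773.3 to 1123. Irf4 stood at 66.5 to 171.9 against 21.2 to 93.0, and Itgax at 33.5 to 193.8 against 0.900 to 67.5. Sirpa stood at 209.1 to 289.5 against 153.5 to 339.1. The Lyve1- MHCIIhi macrophage gate of 21-week-DB went against its name in part, with the Langerhans cell markers Cd207 at 713 CPM and Epcam at 181, against 12.6 to 43.97 and 4.69 to 13.4 in the other libraries. Of its 160 barcodes 30 had 5 or more Cd207 UMIs, against 1 to 3 in the other libraries, and results from that gate are also given without them, an alternative chosen after seeing the data. Shares of barcodes in gates depend on the sort and on depth, because gates ask for fixed numbers of UMIs, and 1490, 2060, 2166 and 3272 barcodes fell in no gate. All levels below are CPM, the UMIs of a gene scaled to 1000000 UMIs of the same barcodes. Reads came from 3′ ends, and levels are compared between cells and libraries, not between genes. T cells should lack these lectins, and their gate therefore shows the free-RNA background. The T cell gate held Clec10a at 3.26 to 11.7 CPM and at most 5.67 of any other of the 7 genes. It left out barcodes with 20 or more MHC class II or 10 or more C1q UMIs, so the background may be understated.

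The 7 genes fell into 3 patterns by where their UMIs lay. Cd209a, Cd209d, Cd209e and Mgl2 were centred on dendritic cells, with 54.9% to 61.5% of all Cd209a UMIs in the cDC2 gates, 44.3% to 53.6% of Cd209d, 51.5% to 72.7% of Cd209e and 47.2% to 63.3% of Mgl2 over the 4 libraries. Cd209f was centred on macrophages, which held 85.4% to 87.7% of its UMIs, against 0% to 1.33% in the cDC2 gates. Cd209b was divided between these, with 22.2% to 40.3% in cDC2. Clec10a was spread over cDC2, macrophages and mast cells, and the mast cell gate alone held 10.1% of its UMIs in 21-week-WT and 53.4% in 21-week-DB.

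**Figure D1:**
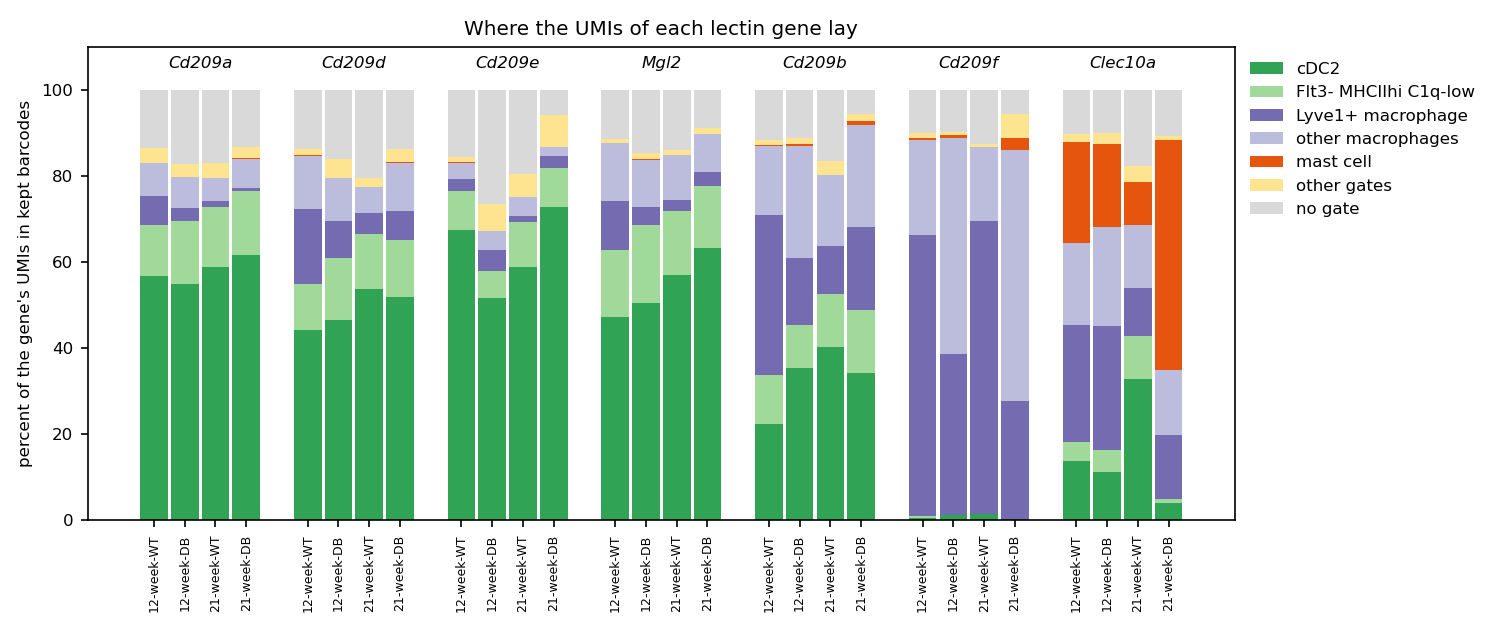
Share of each gene's UMIs by group of gates (percent, stacked bars from 0 to 100), with 1 bar per library for each of the 7 lectin genes. The cDC2 gates hold 44.3% to 53.6% of Cd209d UMIs, macrophages hold 85.4% to 87.7% of Cd209f UMIs, and the mast cell part of Clec10a runs from 10.1% to 53.4%.

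Cd209a, the gene most often used to mark dermal and monocyte-related dendritic cells, stood in the cDC2 gates at 478 CPM (interval 462 to 494) in WT and 339 (324 to 355) in DB at 12 weeks, and at 329 (319 to 339) in WT and 278 (259 to 298) in DB at 21 weeks. The 12-week-WT library was the highest and 21-week-DB the lowest, and the intervals of 12-week-DB and 21-week-WT overlapped. At least 1 Cd209a UMI was found in 76.8%, 67.3%, 75.8% and 73.4% of cDC2 barcodes. After each barcode was thinned to 2000 UMIs these shares were 48.0%, 42.9%, 39.0% and 35.0%, which is the same order as the levels.

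Cd209d, a further relative of DC-SIGN, stood in the cDC2 gates at 434, 362, 377 and 351 CPM in the same order of libraries. Only 12-week-WT lay above the others beyond counting error. Mgl2 stood at 582, 691, 576 and 516, so that 12-week-DB was the highest, and 21-week-DB was the lowest. Mgl2 UMIs were present in 76.6%, 74.6%, 68.5% and 76.2% of cDC2 barcodes, and in 54.6%, 54.4%, 49.5% and 50% after thinning. The thinned shares of the 12-week libraries were thus alike although their levels differed. Clec10a in the same gates stood at 165, 139, 132 and 133 CPM, with 12-week-WT above the other libraries and the other 3 overlapping.

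Cd209e differed more between libraries within cDC2. Its level was 137 CPM (interval 129 to 146), 78.0, 48.8 and 56.7, and the 21-week libraries overlapped. Fewer barcodes carried it than Cd209a, Cd209d or Mgl2, with 28.5%, 21.1%, 18.5% and 20.6% of cDC2 barcodes positive. Cd209b stood at 25.4, 25.03, 12.4 and 25.8 CPM, and 21-week-WT (10.5 to 14.5) was the only library whose interval did not overlap the others. Cd209f was at 4, 2, 2 and 0 UMIs in cDC2, and the 0 of 214 barcodes in 21-week-DB allows up to 1.40% of barcodes with a UMI (3 counts of the total), which does not limit the share of cells that express the gene.

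Mgl2 was highest in the cDC2 gate in 4 of 4 libraries, and Cd209e in the migratory cDC2 gate in 3 of 4. Cd209a and Cd209d were highest there in 3 of 4, with the migratory cDC2 gate at the top in the remaining library, and for both genes the intervals of these gates overlapped in 2 libraries. Barcodes with high MHC class II, low C1q and no Flt3 or Zbtb46 UMI carried the dendritic group at intermediate levels. In them Mgl2 stood at 338, 373, 353 and 303 CPM and Cd209a at 177, 137, 185 and 174. For Cd209a the order then ran down through Lyve1- MHCIIhi macrophages (74.4, 32.8, 48.0 and 37.6) to Lyve1+ macrophages (55.0, 14.6, 15.3 and 2.25). These neighbours did not overlap in any of the 4 libraries. Lyve1- MHCIIlo macrophages came lower in the order, which goes by the median of the 4 libraries. Their Cd209a level was 72.6 in 12-week-WT and 5.35 in 21-week-DB, above that of Lyve1+ macrophages in both. The order covers only gates with at least 20 barcodes in every library, which leaves out monocytes (93, 61, 157 and 18 barcodes). Monocyte Cd209a UMIs were 95, 40, 64 and 0, at most 114 CPM (12-week-WT). Their Cd209d UMIs were 27, 103, 49 and 0, at most 202 CPM (12-week-DB). In the cDC1 gate Cd209a stood at 53.3, 42.4 and 48.6 in the first 3 libraries, and the 21-week-DB gate held too few barcodes (3) to give a level.

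**Figure D2:**
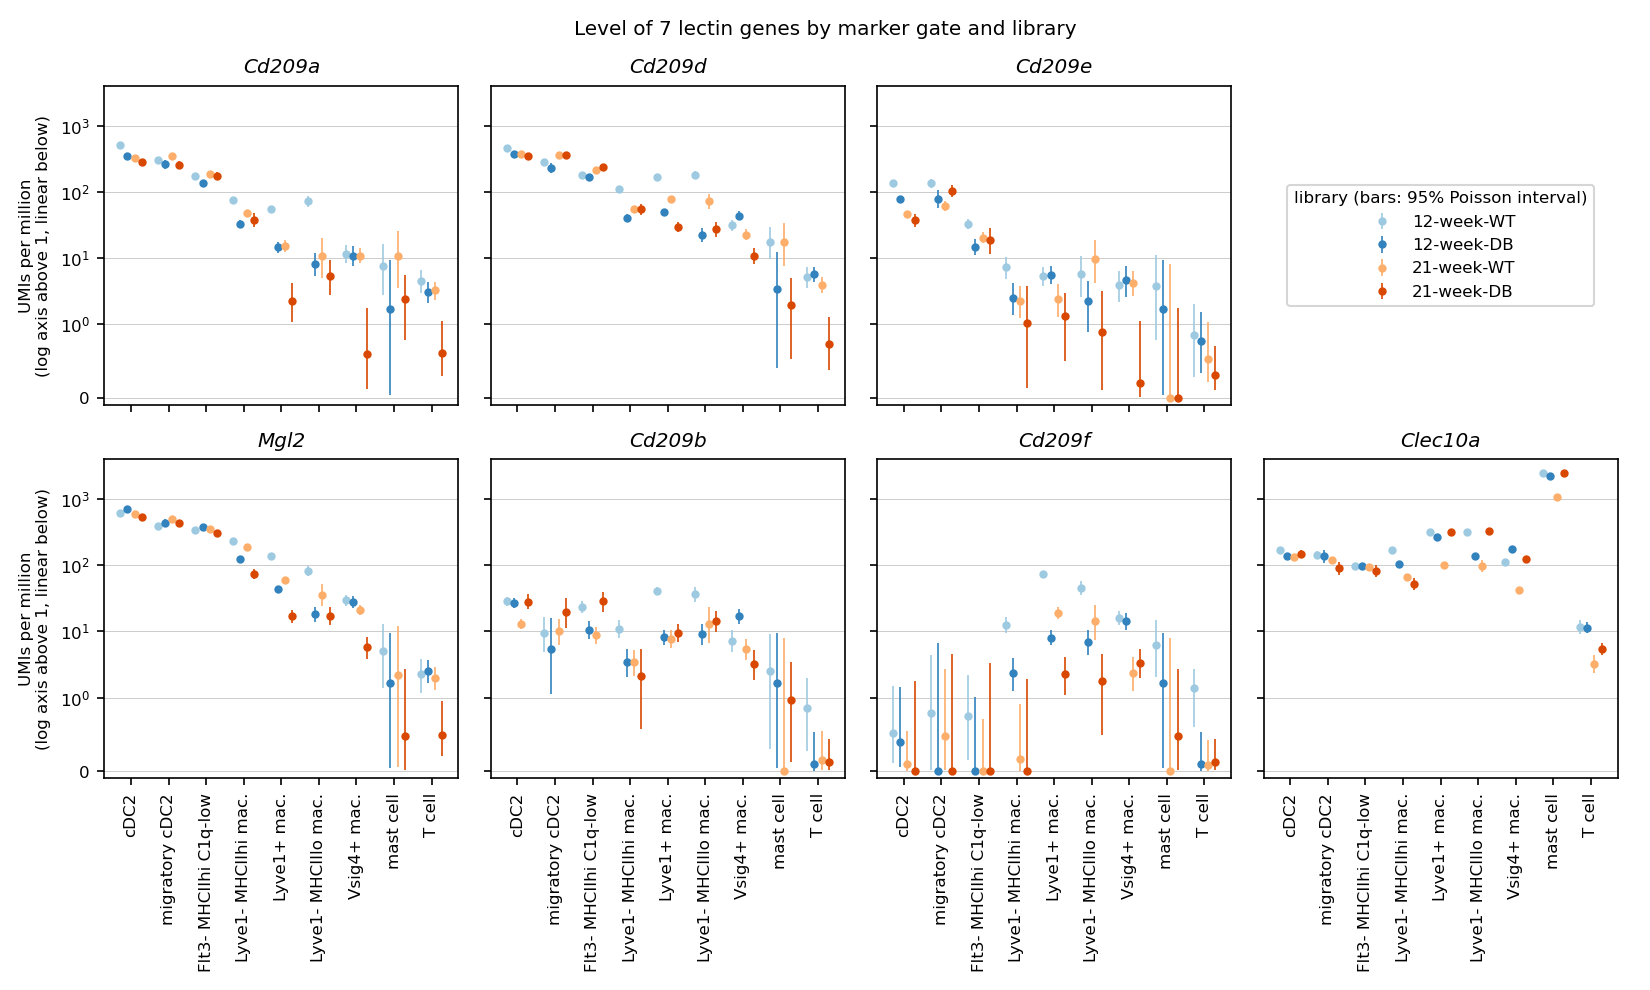
Level of each gene (CPM, log axis above 1 and linear below) in 9 gates, with 1 point per library and 95% Poisson intervals as bars. Mgl2, Cd209a, Cd209d and Cd209e are high in both cDC2 gates and low in mast and T cells. Outside macrophages Cd209f is at most 6.30, in mast cells of 12-week-WT (5 UMIs). Clec10a peaks in the mast cell gate at 1090 to 2510.

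Within cDC2, Cd209a, Cd209d and Mgl2 were often found in the same barcodes. All 3 of Cd209a, Cd209d and Mgl2 were detected in 58.3%, 52.4%, 54.7% and 57.5% of cDC2 barcodes, and none of the 3 in 10.9%, 14.3%, 14.2% and 10.7%. After thinning to 2000 UMIs, Cd209d was detected in 57.5% of Mgl2-positive and 23.6% of Mgl2-negative cDC2 barcodes of 12-week-WT. The corresponding values were 57.5% and 20.4% in 12-week-DB, and 47.7% and 25.2% in 21-week-DB. Cd209a differed in the same direction, with 59.6% against 33.9% in 12-week-WT and 43.9% against 26.2% in 21-week-DB. Cd209e was detected in 20.7% of Mgl2-positive and 6.01% of Mgl2-negative barcodes of 12-week-WT. The shares were 16.7% and 4.975% in 12-week-DB, and 9.56% and 2.975% in 21-week-WT. In 21-week-DB they were 7.48% and 6.54%, of 107 barcodes each. Clec10a in cDC2 was less tied to Mgl2 than Cd209a and Cd209d were. It was at 25.4% against 24.5% in 12-week-WT and 23.75% against 21.9% in 12-week-DB. At 21 weeks it was at 18.9% against 22.2% in WT and 23.4% against 17.8% in DB. In Lyve1+ macrophages of 12-week-WT, barcodes with a rarer lectin gene often held a commoner one. Cd209d was found in 81.6% of Cd209b-positive and 14.7% of Cd209b-negative barcodes, in 75.4% against 12.01% by Cd209a and in 70.8% against 12.9% by Cd209f. Clec10a was found there in 84.6% of Cd209f-positive and 29.5% of Cd209f-negative barcodes, and in 59.3% against 28.15% by Mgl2. The reverse shares were lower. Of Cd209d-positive barcodes there, 24.6% held Cd209b, 41.3% Cd209a and 36.5% Cd209f, and of Clec10a-positive ones 23.1% held Cd209f. These are shares of cells of 1 library each, and cells are not replicates.

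**Figure D3:**
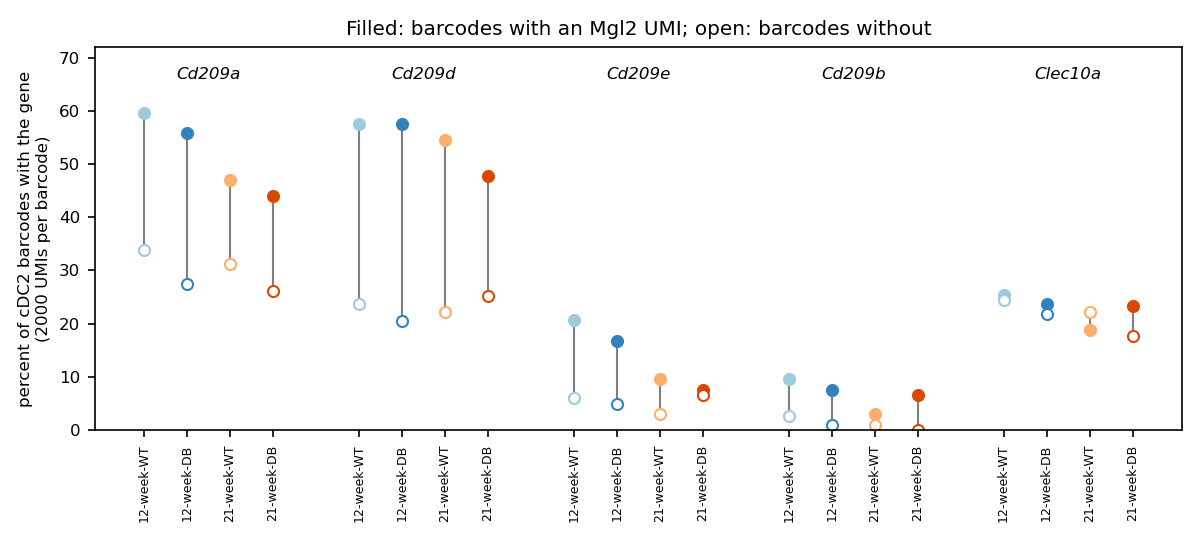
Percent of thinned cDC2 barcodes (2000 UMIs each) in which Cd209a, Cd209d, Cd209e, Cd209b or Clec10a was detected, by library, with filled circles for barcodes with an Mgl2 UMI, open circles for those without and a line joining them. For Cd209d the shares in 12-week-WT are 57.5% and 23.6%, whereas for Clec10a they are 25.4% and 24.5%.

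Over the 4 macrophage gates together the members of the Cd209 family were highest in 12-week-WT. Cd209f stood at 43.5, 7.32, 7.20 and 2.27 CPM over the 4 macrophage gates. Cd209d stood at 124, 41.7, 52.7 and 25.8, Cd209a at 51.3, 18.1, 24.96 and 7.11, and Mgl2 at 131, 59.98, 90.3 and 20.96. Each of these 4 genes was thus lower in DB than in WT at both ages. Cd209b stood at 25.8, 8.45, 5.81 and 6.89, so its 12-week-WT level stood apart and the other 3 lay close together. Cd209e was low in macrophages, at 5.52, 3.995, 3.24 and 0.806.

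At 12 weeks, 5 of the 7 genes differed by at least 2-fold over the 4 macrophage gates together, all lower in DB. This stands beside 4.18% of the 11627 genes with at least 50 UMIs that passed 2-fold in either direction. The genes were chosen with this contrast known, and nothing is read from that difference in share. The log2 ratio of DB to WT was −2.57 for Cd209f (interval −2.84 to −2.31), −1.61 for Cd209b, −1.57 for Cd209d, −1.50 for Cd209a and −1.12 for Mgl2. Clec10a (−0.36) and Cd209e (−0.47) did not pass 2-fold. At 21 weeks 6 of 7 passed 2-fold, beside 8.21% of 11431 genes, and 5 were lower in DB. The ratios were −2.11 for Mgl2, −2.01 for Cd209e, −1.81 for Cd209a, −1.67 for Cd209f and −1.03 for Cd209d, while Clec10a was higher in DB at 1.57. Cd209b was at 0.25 with an interval (−0.17 to 0.66) that includes 0. The Cd209e ratio rests on a low level, 0.806 CPM in 21-week-DB beside 0.303 in the T cell gate. Without Cd207-high barcodes its interval was −3.045 to −1.02. Cd209f had 31 UMIs in 21-week-DB. Not every gate followed the sum at 12 weeks. In the Vsig4+ gate alone Cd209d (0.50) and Cd209b were higher in DB. Cd209b had 28 UMIs of 3844834 there in WT and 55 of 3249538 in DB. Of the same totals Cd209a had 45 UMIs in WT and 35 in DB, Mgl2 114 and 92, and Cd209f 62 and 47. Their levels in that gate were thus close between WT and DB, and Clec10a was higher in DB (435 and 574 UMIs). In the Lyve1- MHCIIlo gate Cd209a had 114 UMIs of 1569960 in WT and 26 of 3164702 in DB, and Cd209d 286 and 71.

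The make-up of the macrophages differed between the libraries, with 372, 456, 519 and 160 barcodes in the Lyve1- MHCIIhi gate and 207, 323, 103 and 306 in the Lyve1- MHCIIlo gate. With the 4 macrophage gates weighted as in 21-week-WT, the 21-week log2 ratio of Cd209a was −0.83 in place of −1.81, and that of Cd209d −0.71 in place of −1.03, so that neither passed 2-fold. Within the Lyve1+ gate the 21-week ratio was −2.76 for Cd209a and −1.38 for Cd209d, and within the Lyve1- MHCIIhi gate it was −0.35 and −0.03, the latter 2 intervals both including 0. Mgl2 was lower in 21-week-DB in both gates, at −1.82 and −1.33. Without the Cd207-high barcodes the ratios in the Lyve1- MHCIIhi gate were −0.12 for Cd209a, 0.27 for Cd209d and −1.04 for Mgl2.

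Lyve1+ macrophages, a perivascular type of tissue macrophage, held the highest Cd209f levels in the WT libraries. There Cd209f stood at 74.7, 8.07, 18.96 and 2.25 CPM, with 14.3%, 3.12%, 4.33% and 1.41% of barcodes positive. The log2 ratio of DB to WT was −3.21 at 12 weeks (interval −3.62 to −2.83) and −3.08 at 21 weeks (−4.18 to −2.14). Vsig4+ macrophages were left out of the Lyve1+ gate. Lyve1 stood in them at 1654 to 3384 CPM, against 1365 to 2225 in the Lyve1+ gate. In Vsig4+ macrophages Cd209f stood at 16.1 and 14.5 at 12 weeks and at 2.36 and 3.37 at 21 weeks. Neither DB to WT ratio stood clear of 0. The near copy Cd209g went with Cd209f in all macrophages, at a ratio of Cd209f to Cd209g UMIs of 1.89, 1.47, 1.72 and 1.72.

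Levels of MHC class II genes in the Lyve1+ gate also differed between DB and WT, in the same direction there as Cd209a, Cd209d, Cd209f and Mgl2. With age in WT they differed in the opposite direction to these genes. Other lectins went otherwise in that gate. Clec10a was higher in DB at 21 weeks (1.66), and Cd209e was at 0.05 at 12 weeks. Cd209b had 42 UMIs in each 21-week library, of 5431726 in WT and 4443289 in DB. The summed level of the 4 MHC class II markers in the Lyve1+ gate was 6467, 3402, 8142 and 490.4 CPM, lower in DB at both ages and highest in 21-week-WT. In the T cell gate, where these genes and the lectins are background, it was 615.7, 433.4, 577.5 and 136.6. That gate was limited to fewer than 20 of these UMIs per barcode, so this background may be understated. Cd209a in the T cell gate was 4.46, 3.08, 3.26 and 0.606, so the background too was lowest in 21-week-DB. The 21-week-DB level of Cd209a in Lyve1+ macrophages rested on 10 UMIs, at 2.25 against that background of 0.606. With the T cell level subtracted, 40 of 41 differences of at least 2-fold in the 4 macrophage gates together or the Lyve1+ gate kept that size, and the exception was Cd209d over all macrophages at 21 weeks (−0.96). That ratio, −1.03 as given, was also short of 2-fold without likely doublets (−0.94), with stricter gates (−0.95), without mitochondrial and ribosomal UMIs (−0.99) and without Cd207-high barcodes (−0.99). The part of the macrophage phenotype in these differences was not tested.

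Within cDC2 Cd209a, Cd209d and Mgl2 had DB to WT ratios nearer to 0 than in macrophages at both ages, whereas Cd209e at 12 weeks and Cd209b at 21 weeks had ratios farther from 0. At 12 weeks 0 of the 6 genes with at least 50 UMIs passed 2-fold, beside 2.08% of 9810 genes. The log2 ratios were −0.81 for Cd209e, −0.49 for Cd209a, −0.26 for Cd209d, −0.25 for Clec10a, −0.02 for Cd209b and 0.25 for Mgl2. With stricter gates that of Cd209b was 0.73. At 21 weeks 1 of 6 passed, beside 7.8% of 9732 genes. It was Cd209b, higher in DB at 1.06, and with at most 5% mitochondrial UMIs allowed it was 0.94. Mgl2 (−0.16), Cd209a (−0.24), Cd209d (−0.10), Cd209e (0.22) and Clec10a (0.00) did not. The inflammatory marker list in cDC2 stood at 794.4, 1056, 2126 and 6112 CPM, highest in 21-week-DB, and its part in these values was not tested.

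**Figure D4:**
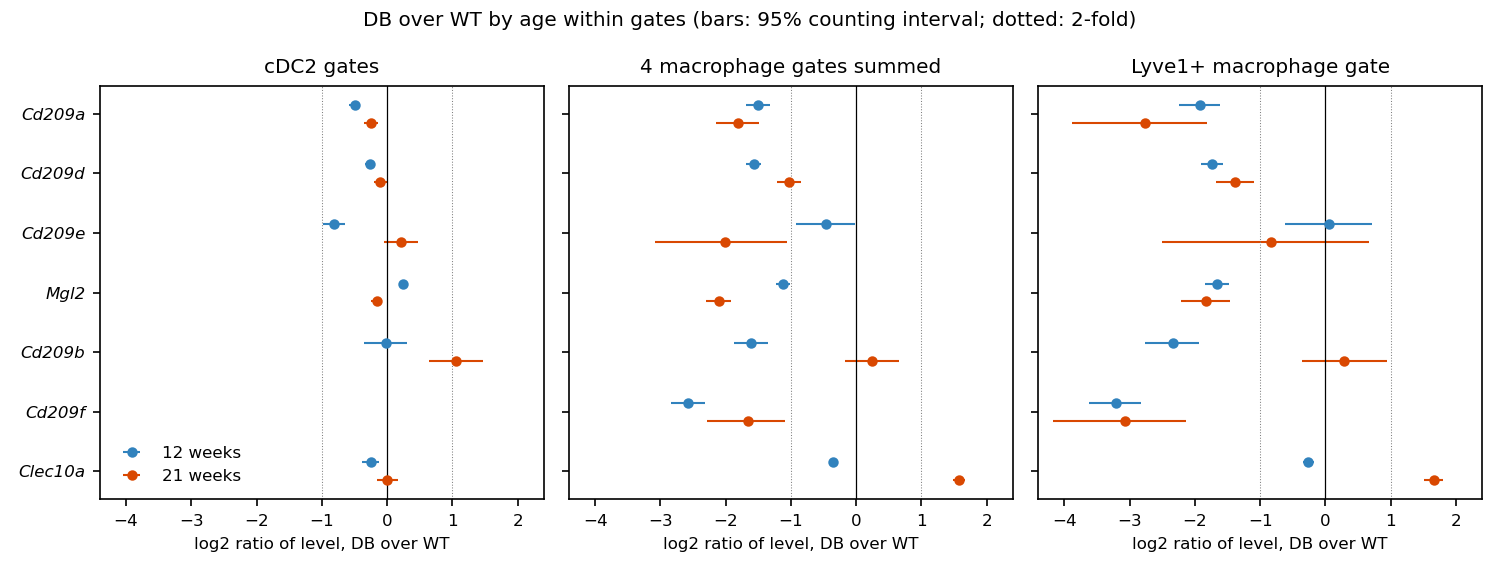
log2 ratio of DB to WT for the 7 genes at 12 and 21 weeks in the cDC2 gates, the 4 macrophage gates summed and the Lyve1+ macrophage gate, with 95% counting intervals as bars and 2-fold as dotted lines. In macrophages Cd209f, Cd209d, Cd209a and Mgl2 lie below 0 at both ages, Clec10a lies at −0.36 and 1.57, and most cDC2 points lie within 2-fold.

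With age, median log2 ratios over all genes tested lay between −0.10 and −0.22 in these pools, so age ratios are best read against that shift. In WT macrophages 5 of 7 genes differed by at least 2-fold, all lower at 21 weeks, beside 4.05% of genes. The log2 ratios of 21 to 12 weeks were −2.60 for Cd209f, −2.15 for Cd209b, −1.73 for Clec10a, −1.23 for Cd209d and −1.04 for Cd209a. With at most 5% mitochondrial UMIs allowed, Cd209a was −0.77 and Cd209d −0.998, so that 3 of the 5 passed, and without mitochondrial and ribosomal UMIs Cd209a was −0.995. In DB macrophages 4 of 7 differed by at least 2-fold, all lower at 21 weeks, beside 7.88% of genes, and Clec10a was at 0.20. With macrophage gates weighted as in 12-week-DB, Cd209a was −0.53 in place of −1.35 and Mgl2 −0.93 in place of −1.52.

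In WT cDC2, 2 of 6 genes differed by at least 2-fold, both lower at 21 weeks, beside 4.7% of genes. They were Cd209e, at a log2 ratio of −1.49, and Cd209b at −1.04. The Cd209b value was −0.39 with stricter gates. Mgl2 was at −0.02. In DB cDC2 0 of 6 passed, beside 9.33% of genes.

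Clec10a was highest in the mast cell gate in 4 of 4 libraries. It stood there at 2510, 2272, 1090 and 2476 CPM, with 93.9%, 90.04%, 79.7% and 91.6% of barcodes positive. Mgl2, its closest relative in sequence, had 4, 1, 1 and 1 UMIs in the same barcodes. The 21-week-WT library was the lowest in Clec10a, and the log2 ratio of DB to WT was −0.14 at 12 weeks and 1.18 at 21 weeks. The summed level of the 5 mast cell markers in that gate was 66290, 57930, 50540 and 32450, so it did not follow the Clec10a order.

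In macrophages Clec10a stood at 236, 184, 71.2 and 212 CPM, again lowest in 21-week-WT. In the Lyve1+ gate it stood at 318, 266, 101 and 320, with 55.8%, 63.7%, 33.8% and 62.6% of barcodes positive. The Vsig4+ gate gave 113, 177, 41.6 and 123. The Lyve1- MHCIIlo gate gave 322, 138, 98.06 and 333. In the Lyve1- MHCIIhi gate the order was different, at 171, 104, 67.4 and 52.2. Without the Cd207-high barcodes the 21-week ratio there was −0.07, with an interval (−0.40 to 0.25) that includes 0. The mast cell markers summed to at most 29.1 CPM in macrophages, against 32450 to 66290 in the mast cell gate. Macrophages were gated to fewer than 20 UMIs of these markers, so this contrast follows from the gating and is no check of Clec10a. Clec10a in the T cell gate stood at 11.7, 11.4, 3.26 and 5.45. The ratio of Clec10a to Mgl2 UMIs in macrophages was 1.81, 3.07, 0.788 and 10.1. In cDC2 it was 0.283, 0.201, 0.230 and 0.258, a narrower range, although the intervals of the first 3 libraries did not overlap.

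Over all kept barcodes, Clec10a stood at 183, 125, 73.0 and 177 CPM, and without the mast cell gate at 143, 102, 66.05 and 85.7. The 21-week log2 ratio of DB to WT was 1.28 with and 0.38 without mast cells (interval 0.32 to 0.44), so the gene no longer passed 2-fold. For DB at 21 against 12 weeks the ratio was 0.50 with and −0.25 without them. Mgl2 stood at 187, 138, 182 and 43.6, and its 21-week ratio was −2.06 with and −2.02 without the mast cell gate. Over all kept barcodes 4 of 7 genes passed 2-fold at 12 weeks, beside 4.83% of genes, and 6 of 7 at 21 weeks, beside 14.7%. Between the ages 4 of 7 passed in WT, beside 7.02%, and 5 of 7 in DB, beside 12.6%. Each count was lower by 1 without likely doublets or without mitochondrial and ribosomal UMIs, with Cd209e in WT at −0.99 and −0.98 and Cd209d in DB at −0.99 and −0.96. Whole-library levels mix the number of cells of a type with RNA per cell, and cDC2 were 2.46% of barcodes in 21-week-DB against 11.9% in 21-week-WT.

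**Figure D5:**
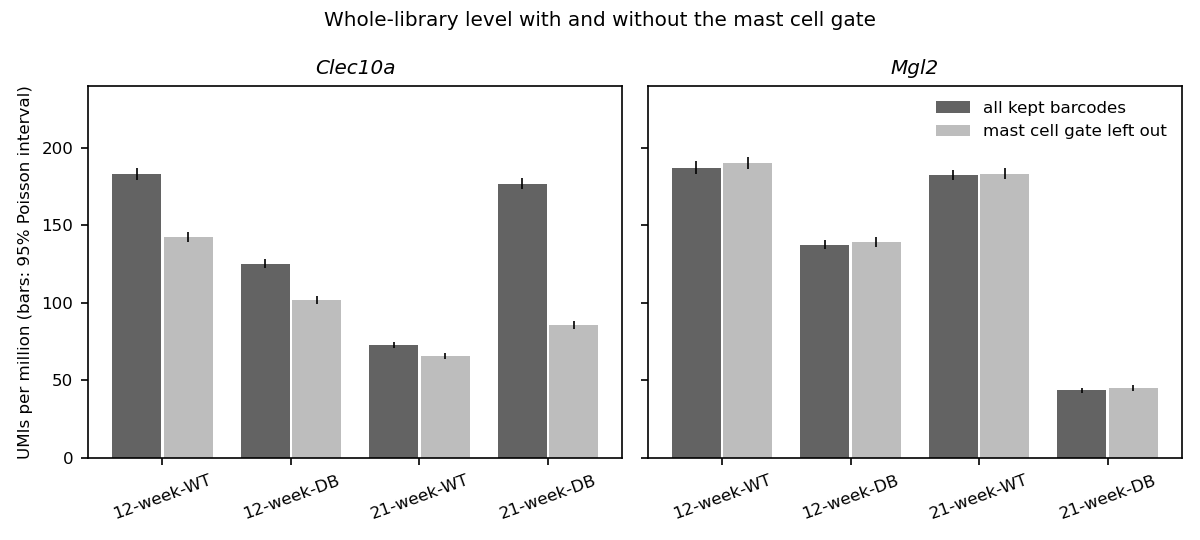
Level over all kept barcodes (CPM, bars from 0) of Clec10a and Mgl2 in each library, with the mast cell gate included and left out, with 95% Poisson intervals. Leaving it out takes Clec10a in 21-week-DB from 177 to 85.7 and leaves Mgl2 near its level (43.6 and 45.3).

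Of 17 other C-type lectin receptors on the list, 16 were analysed here. In macrophages at 12 weeks 14 had enough UMIs, and Clec4d (1.37) was higher and Clec4n (−1.20) lower in DB by at least 2-fold, given as log2 ratios, beside the 4.18% of all genes. At 21 weeks 4 of 15 were higher and 1 lower, beside 8.21%, among them Cd207, the langerin of Langerhans cells (2.93), and Clec4b1 (−2.10). Without the Cd207-high barcodes Cd207 in macrophages stood at 0.672 CPM in WT and 2.04 in DB. In cDC2 at 21 weeks 6 of 13 were higher, beside 7.8% of all genes, led by Clec4e, the receptor Mincle, at 89.6 in WT and 937 CPM in DB (3.39). The median log2 ratio of the lectin list was −0.18 in macrophages at 12 weeks and 0.25 at 21 weeks, against 0.01 and 0.08 for all genes tested, and 0.18 and 0.68 in cDC2 against 0.02 and 0.02. None of the 10 genes of the list of lectin receptor signalling (Syk, Card9 and partners) passed 2-fold in either pool between DB and WT. This stands beside 2.08% to 8.21% of all genes, and with 10 genes it is near that share. Over all kept barcodes at 21 weeks 3 of the 10 were lower in DB by at least 2-fold, among them Plcg2 (−1.47), beside 14.7% of all genes.

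The IL-4 and STAT6 response list, to which the galactose-type lectins are often assigned, was mixed. In macrophages at 12 weeks 2 of 17 genes were higher in DB by at least 2-fold (Chil3 at 5.58, and Arg1). In the same contrast 3 were lower, among them Ccl17 at −2.72, beside 4.18% of all genes in either direction. Chil3 was near the floor in WT, at 0.36 CPM against 17.3 in DB, with an interval of 4.45 to 7.04. At 21 weeks 1 was higher and 4 lower, beside 8.21%, led by Retnla, a secreted product of IL-4 exposed macrophages, which stood at 3032 in WT and 25.2 in DB (−6.91). In cDC2 Ccl17, a chemokine of dendritic cells, was lower in DB at 12 weeks (−1.79) and higher at 21 weeks, at 542 in WT and 1839 in DB (1.76). The median of the list was −0.33 at 12 weeks and −0.48 at 21 weeks in macrophages, and −0.35 and 0.34 in cDC2, beside the same all-gene medians.

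Over 44 sums of UMIs, 1 for each gate and library with at least 20 barcodes, the 5 genes most like each lectin were ranked by Pearson's r of log2(CPM + 1) among 6158 genes. The sums share libraries and depth, and r is a description. Mgl2 and Cd209d were the most alike (0.94). Cd209a was most like Lmo1 (0.93) and then Casp6 and Clec4b1, and Cd209e most like Syngr2 (0.88). Cd209b was most like Cd209d (0.78) and Mrc1, the mannose receptor. Cd209f was most like Chp2 (0.87) and Ccl8, with Cbr2 and Stab1 among its 5, and Clec10a most like Ids (0.86). Clec10a and Mgl2 had an r of 0.02 over the same sums, and Cd209f and Cd209a one of −0.26. By Spearman's rank correlation 4 of the 5 genes were again named for Mgl2 and for Cd209d, 2 for Cd209a and Cd209e, 1 for Cd209b and Clec10a, and 0 for Cd209f. The genes named for all but Mgl2 and Cd209d thus depend on the measure. By Spearman's measure Ifi30 was most like both Cd209a (0.92) and Cd209e (0.86).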

How the data were processed

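CD45+ cells were sorted from hindpaws and libraries prepared by the 10x 3' v3 method. The authors deposited UMI counts per gene and barcode made with Cell Ranger (5.0.0 per the labels and the 12-week headers, 6.0.0 per the 21-week headers) against mm10. Counts were read with Python 3.11.15 and SciPy 1.17.1. A barcode was kept if it had 200 genes or more and mt- UMIs made up no more than 10%. Gates used summed UMIs of fixed markers: macrophages at least 10 C1q UMIs, cDC2 at least 100 MHC class II UMIs, fewer than 10 of C1q and at least 1 of Flt3 or Zbtb46, mast cells at least 20 mast cell UMIs and T cells at least 5 T cell UMIs. Gate thresholds were set after the marker distributions were seen, and the members and lists were chosen with earlier results of these data known.

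Counts were summed per gate and library and given as CPM. Intervals are exact Poisson for levels, Clopper-Pearson for shares and exact conditional binomial for ratios, all 95%. A difference of 2-fold was used for counts of genes, over genes with at least 50 UMIs in both libraries together. A count of 0 was read with a floor of 3 counts. The scripts were tested on simulated data. With 1 library per condition no test between conditions was made. Doublets were marked with Scrublet (scanpy 1.11.5) at 0.8% per 1000 barcodes and left out only in an alternative. Named genes were the 7 members, the genes of the 3 lists past 2-fold and the 5 genes most like each member. Sequences came from GENCODE vM21, read with Biopython 1.88.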

Additional observations from a re-analysis of the deposited data

Results flagged for a closer look

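The DB to WT log2 ratio changed sign between the ages for 12 pairs of a gene and a gate or sum of gates, with intervals clear of 0 at both ages. Several of these share barcodes, and none of the differences between ages was tested, since each condition has 1 library. The share of all genes that change sign in this way is not given, so nothing is read from the count of 12. For Clec10a the ratio was −0.36 at 12 weeks and 1.57 at 21 weeks in the 4 macrophage gates together, −0.26 and 1.66 in the Lyve1+ gate, −1.22 and 1.76 in the Lyve1- MHCIIlo gate, and −0.14 and 1.18 in the mast cell gate. It was −0.55 and 1.28 over all kept barcodes, and −0.48 and 0.38 without the mast cell gate. The 21-week-WT library was the lowest of the 4 in each of these Clec10a levels. Not every gate had such a change for Clec10a. In the Vsig4+ gate Clec10a was higher in DB at both ages. In the Lyve1- MHCIIhi gate it was lower in DB at both, at −0.72 and −0.37, the latter −0.07 without Cd207-high barcodes. For Mgl2 the ratio was 0.25 and −0.16 over both cDC2 gates, 0.21 and −0.12 in the cDC2 gate alone, and 0.14 and −0.22 in the Flt3-negative MHCIIhi gate. For Cd209b in that last gate it was −1.13 and 1.68, for Cd209e in migratory cDC2 −0.78 and 0.76, and for Cd209d in Vsig4+ macrophages 0.50 and −1.06.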

How the results depend on the processing

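No lectin ratio of at least 2-fold changed direction under an alternative. Smaller ratios changed sign in 0 to 5 of the ratios computed under each alternative, and the widest such change was that of Cd209e in Lyve1+ macrophages at 12 weeks (DB to WT), at 0.05 as given and −1.32 with stricter gates. The 66 lectin ratios of at least 2-fold in cDC2, all macrophages, Lyve1+ macrophages, mast cells (Clec10a) and all kept barcodes were taken without the minimum of 50 UMIs, and so include Cd209f in cDC2. Of these, 66 kept that size with at least 500 genes per barcode, 61 with at most 5% mitochondrial UMIs, 63 without likely doublets, 61 without mitochondrial and ribosomal UMIs, 63 with stricter gates, and 66 without shared barcodes and 65 without Cd207-high barcodes, alternatives chosen after seeing the data. Of the 20 that the weighting of macrophage gates could touch, 16 kept it. Adding the Flt3-negative MHCIIhi barcodes to cDC2, also chosen after seeing the data, kept 4 of 4.

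The number of all genes past 2-fold depends on the minimum of UMIs. With at least 200 UMIs, or with 1 UMI in each library, in place of at least 50, the counts in macrophages were 200 and 2238 at 12 weeks (DB to WT), 424 and 2971 at 21 weeks, 176 and 2251 for age in WT and 440 and 2991 for age in DB. In cDC2 they were 50 and 1694, 298 and 2632, 160 and 2121, and 341 and 2325 in the same order, and over all kept barcodes 365 and 2762, 1276 and 4641, 474 and 3410, and 1112 and 4214. The number of lectin genes past 2-fold for age in DB macrophages was 2 with at least 200 UMIs, beside 440 of all genes. Cd209f (143 and 31 UMIs) and Cd209e fell short of that minimum and could no longer be counted. The lower number is thus no loss of their difference. The number of all genes that met that minimum is not given here. No paired analysis was possible because each condition has 1 library. Depth limits Cd209f in cDC2 and all 7 genes in the cDC1 and monocyte gates of 21-week-DB.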

Other observations

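The other Cd209 genes measured, Cd209c and Cd209g, were found in different gates. Cd209c stood in cDC2 at 14.7, 18.2, 11.3 and 19.6 CPM (WT and DB at 12 weeks, then WT and DB at 21 weeks), and at 1.32, 1.08, 0.558 and 0.366 in macrophages. Cd209g stood in macrophages at 23.0, 4.97, 4.19 and 1.32, with 6, 1, 5 and 0 UMIs in cDC2.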
